A study of Mus musculus with 5 samples.

Results

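The genes described here are 9 genes named for epithelium of the oviduct and of the mesonephros, the transient embryonic kidney whose duct runs beside the gonad: Wfdc2, Ovgp1, Plet1, Slc14a1, Pax2, Pax8, Lhx1, Elf3 and Cdh16. They were chosen with the difference between Lhx8 null and wild type ovaries already known, so their differences are given as a description and carry no test. All probe sets whose single gene symbol was a member were taken, which gave 13 of the 45037 probe sets that were not controls, for 8 of the 9 genes. No probe set carried the symbol of Pax2 alone, and Pax2 was not analysed here. The arrays measured RNA of newborn mouse ovaries at 0.5 days after birth, as 3 pools from Lhx8 null females (replicates 1, 2 and 3) and 2 pools from wild type females (replicates 2 and 3). All pools came from the hybrid background C57/BL6/129SVEV, and each pool held 50 ovaries from at least 25 animals. How the null allele was made is not described in the labels. The product of Lhx8 is a transcription factor with LIM domains and a homeodomain, known from oocytes.

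The oviduct and uterus form from the Müllerian duct, an epithelial tube that grows along the mesonephric duct on the outside of the gonad. The paired-box factors PAX2 and PAX8 and the LIM homeodomain factor LHX1 are needed for the epithelium of both ducts and of the kidney. Secretory cells of the mature oviduct are known for OVGP1, a glycoprotein that binds the coat of the ovulated egg, and for WFDC2, a small secreted protein with whey acidic protein domains. In whole ovaries of this kind, more cells of a type and more RNA per cell cannot be told apart.

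The 250 bases before the transcription start, from RefSeq on build GRCm38.p6, are shown for 3 members in which letters searched for were found and for Wfdc2, the member with the largest difference. The letters searched on both strands were TAATTA, the core that many LIM homeodomain factors bind, TGATTG and TATAAA, and matches stand in capitals.
Wfdc2, chr2:164562465-164562714, plus strand: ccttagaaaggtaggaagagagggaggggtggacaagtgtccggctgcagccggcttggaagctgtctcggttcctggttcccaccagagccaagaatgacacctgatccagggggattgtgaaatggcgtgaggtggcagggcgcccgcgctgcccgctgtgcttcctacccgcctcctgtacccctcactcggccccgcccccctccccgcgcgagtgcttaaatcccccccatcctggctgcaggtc
Plet1, chr9:50494275-50494524, plus strand: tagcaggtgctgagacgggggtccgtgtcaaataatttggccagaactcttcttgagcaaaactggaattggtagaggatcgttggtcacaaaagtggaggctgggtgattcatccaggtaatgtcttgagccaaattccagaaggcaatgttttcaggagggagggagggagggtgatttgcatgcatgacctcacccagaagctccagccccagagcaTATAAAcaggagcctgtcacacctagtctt
Lhx1, chr11:84525535-84525784, minus strand: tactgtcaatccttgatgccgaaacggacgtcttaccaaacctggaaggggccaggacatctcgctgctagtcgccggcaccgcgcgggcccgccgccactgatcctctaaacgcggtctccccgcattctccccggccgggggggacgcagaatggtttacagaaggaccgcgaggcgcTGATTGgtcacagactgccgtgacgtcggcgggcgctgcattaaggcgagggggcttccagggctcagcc
Elf3, chr1:135258473-135258722, minus strand: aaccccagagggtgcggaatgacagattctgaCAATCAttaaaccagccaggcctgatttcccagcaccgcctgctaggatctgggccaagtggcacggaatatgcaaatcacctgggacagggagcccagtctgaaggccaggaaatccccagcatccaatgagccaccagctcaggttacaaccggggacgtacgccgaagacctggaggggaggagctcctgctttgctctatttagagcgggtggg

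The promoter table held 7 of the 9 members, Wfdc2, Ovgp1, Plet1, Pax2, Pax8, Lhx1 and Elf3. None of their stretches held TAATTA, which 4.84% of the 32851 promoters in the table hold over the same length. TGATTG, found in 12.7% of promoters, lay 70 bases before the start of Lhx1 and, on the other strand as CAATCA, 218 bases before that of Elf3. TATAAA, found in 12.4% of promoters, lay 30 bases before the start of Plet1. The stretches also differed in base composition. Lhx1 held 26 CpG pairs, and 90.4% of promoters have fewer, while Plet1 and Ovgp1 held 3 each, against a median of 6 over all promoters. Matches of this kind describe the letters and do not show that a factor binds.

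Lhx8 itself had a signal of 332.6, 159 and 347.4 on the null arrays, against 6450.1 and 5223.1 on the wild type arrays. Signals are array intensities that had been scaled to a trimmed mean of 500 on every array, and correlations between normalised arrays ran from 0.905 to 0.974. The fit over all probe sets called 4816 higher (10.7% of all probe sets) and 4642 lower (10.3%) in null ovaries, 21.0% together, so 50.9% of its calls were higher. Median centring of each array moved that share to 35.0% (3396 higher, 6302 lower) and the median log2 difference of all probe sets to -0.13. With the deposited scaling the share was 56.7% and the median 0.11. The spiked-in bacterial control BioC differed by group, with signals of 2103.4, 2579.4 and 2006.0 on null arrays, against 1064.4 and 911.5 on wild type arrays at its 5' probe set. Actin, whose 3' over 5' signal reflects RNA quality, had a 3' over 5' ratio of 1.69, 1.60 and 1.48 on null arrays, against 1.43 and 1.39 on wild type arrays. The part of either in the results was not tested. Nothing in the sources used here gives array batches.

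Of the 13 probe sets, 12 were brighter in deposited signal on every null array than on both wild type arrays. Of all probe sets, 29.3% were so and 20.9% lay the other way round. The median log2(signal + 16) was 7.18, 7.00 and 7.00 on null arrays, against 6.80 and 6.83 on wild type arrays. After quantile normalization, Plet1 1423934_at had 5.59 on null replicate 1, against 5.66 and 5.86 on wild type arrays, so its groups overlapped. The fit called 10 of the 13 higher, where it called 10.7% of all probe sets higher. The members were chosen on this contrast, so nothing is read from either count. Over the 8 genes, each at its brightest probe set, the median log2 difference was 3.62, and over all 18193 genes it was -0.02. Log2 differences are null minus wild type on the scale log2(signal + 16) after quantile normalization, and the added 16 shrinks the difference of dim probe sets. By mean brightness, 9 of the 13 probe sets lay above the dimmest 40% of all probe sets, and both Lhx1 probe sets, Pax8 1446561_at and Plet1 1423934_at lay within it.

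**Figure D1:**
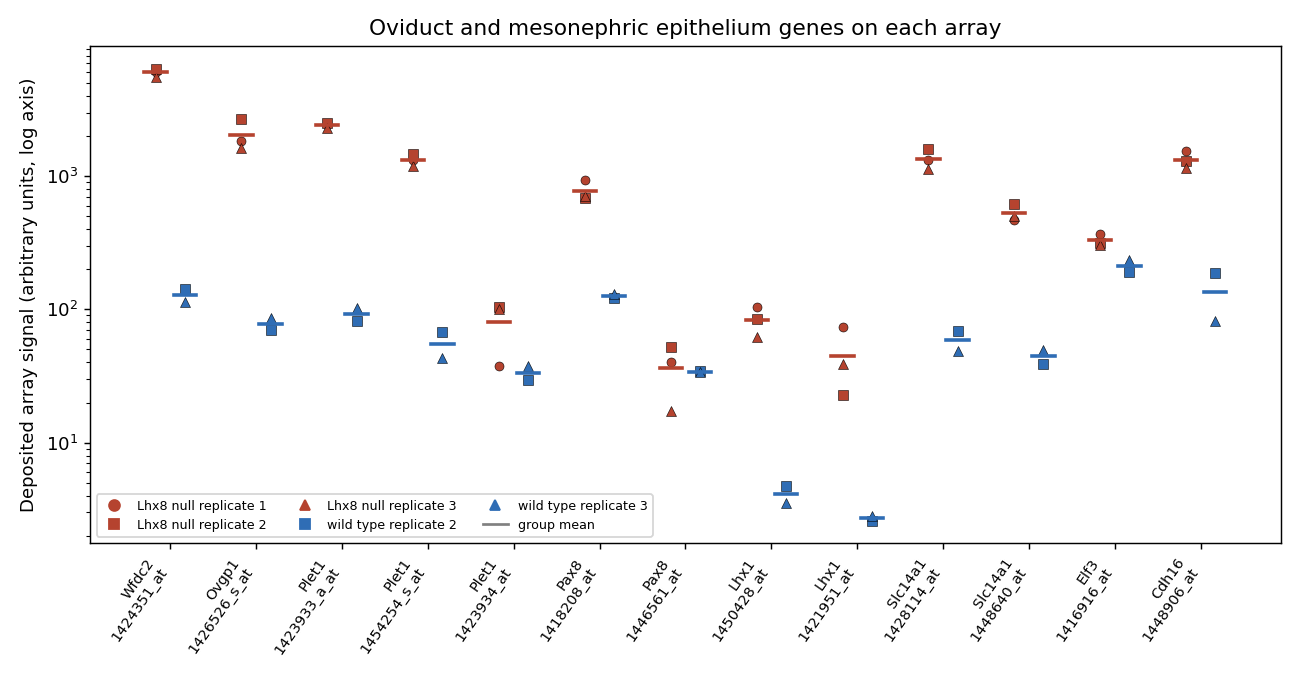
Signal of each of the 13 member probe sets on each array, on a log axis, with Lhx8 null arrays (red) left of wild type arrays (blue) and bars at the group means. The null and wild type points of Wfdc2 lie furthest apart, at means of 6010 and 128, and those of Pax8 1446561_at overlap.

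Among the genes of secreted and surface proteins, the differences at the brightest probe set were the largest of the 8 genes measured. Wfdc2 had signals of 6038.6, 6412.9 and 5578.0 on null arrays 1, 2 and 3, against 142.3 and 113.6 on wild type arrays 2 and 3. The null arrays varied little, and each was at least 39.2 times as bright as the brighter wild type array. The means were 6010 ± 418 (SD, n = 3) in null and 128 ± 20.3 (SD, n = 2) in wild type ovaries, a log2 difference of 5.24 (SE 0.14), and 0 of the 45037 probe sets had a larger difference.

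Ovgp1 was measured by 1 probe set of the suffix _s_at, which marks probes that can match more than 1 transcript. It had signals of 1834.6, 2680.4 and 1621.7 on null arrays, against 70.1 and 86.4 on wild type arrays. Null replicate 2 was the brightest, and the groups lay far apart, with a log2 difference of 4.30 (SE 0.22). The null mean was 2046 ± 560 (SD, n = 3) and the wild type mean 78.3 ± 11.5 (SD, n = 2).

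Plet1, a surface protein of placental and skin epithelial progenitors, had 3 probe sets that did not give the same answer. The brightest, 1423933_a_at, had 2443, 2508.9 and 2294.9 on null arrays, against 81.6 and 102 on wild type arrays. The second, 1454254_s_at, had 1329.9, 1472.2 and 1189.3 on null arrays, against 67.8 and 42.9 on wild type arrays. Both separated the groups by a wide margin, with log2 differences of 4.37 (SE 0.15) and 4.14 (SE 0.21). The third, 1423934_at, had low signals, at 37.8, 104.8 and 100 on null arrays, against 29.4 and 37.5 on wild type arrays. Its null replicate 1 barely exceeded wild type replicate 3 in deposited signal, and lay below both wild type arrays after quantile normalization. Its log2 difference was 0.67 (SE 0.48).

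Slc14a1, the urea transporter of erythrocytes and of kidney vessels, had signals of 1328.8, 1586.1 and 1139.6 on null arrays, against 68.8 and 48.7 on wild type arrays, at 1428114_at. The other probe set, 1448640_at, had 465.1, 615.5 and 502.2 on null arrays, against 39 and 49.8 on wild type arrays. Null replicate 2 was the brightest at both, and neither overlapped between groups. The log2 differences were 4.08 (SE 0.21) and 3.02 (SE 0.25), and the ratios of mean signals 23.0 and 11.9.

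Cdh16, the kidney-specific cadherin of tubule and duct epithelium, had signals of 1553.7, 1288.1 and 1146.9 on null arrays, against 187.7 and 81.2 on wild type arrays. The groups did not overlap, and the wild type pools lay further apart in log2 level than at the brightest probe set of any other member. The log2 difference was 3.16 (SE 0.29), 3.63 without wild type replicate 2 and 2.61 without wild type replicate 3.

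The transcription factor genes differed less. Pax8 at 1418208_at had signals of 936.3, 684 and 710.4 on null arrays, against 122.1 and 129.4 on wild type arrays. Null replicate 1 was the brightest, and every null array was at least 5.29 times as bright as the brighter wild type array. The null mean was 777 ± 139 (SD, n = 3) and the wild type mean 126 ± 5.16 (SD, n = 2), a log2 difference of 2.34 (SE 0.19). The second Pax8 probe set, 1446561_at, had 40.3, 51.9 and 17.4 on null arrays, against 34.3 and 33.7 on wild type arrays. Those groups overlapped, and the log2 difference was -0.22 (SE 0.43), or 0.010 with the deposited scaling.

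Lhx1, a LIM homeobox gene needed for both ducts, was the dimmest member. Its probe set 1450428_at had signals of 103.6, 84.7 and 62.2 on null arrays, against 4.7 and 3.5 on wild type arrays. Its probe set 1421951_at had 73.3, 22.8 and 38.8 on null arrays, against 2.6 and 2.8 on wild type arrays. The groups did not overlap at either, and the signals were low. Their log2 differences were 2.16 (SE 0.37) and 1.49 (SE 0.41). Adding 1 instead of 16 gave 3.82 and 3.25, and adding 64 gave 1.03 and 0.62. No detection calls were used here.

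Elf3, an epithelial factor of the ETS family, had signals of 368.8, 313.9 and 306 on null arrays, against 189.8 and 233.4 on wild type arrays. The groups did not overlap but lay close, with a mean ratio of 1.56 and a log2 difference of 0.47 (SE 0.21), the smallest among the brightest probe sets of the 8 genes.

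**Figure D2:**
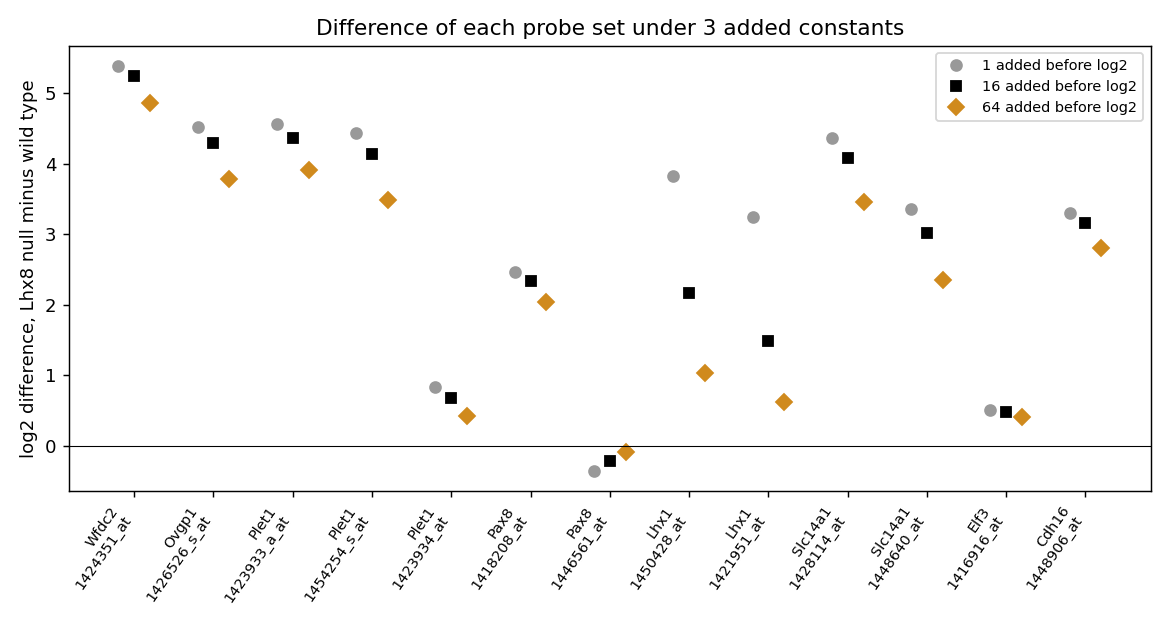
Log2 difference, null minus wild type, of each member probe set with 1, 16 or 64 added before the logarithm. The Lhx1 probe sets move most, from 3.82 to 1.03 at 1450428_at, while Elf3 moves from 0.50 to 0.40.

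The members did not all vary in the same order among the null pools. At the brightest probe set, null replicate 3 was the lowest of the null arrays for 7 of the 8 genes, and Pax8 was lowest in null replicate 2. Null replicate 1 was the highest for 4 genes, which were Pax8, Lhx1, Elf3 and Cdh16. Null replicate 2 was the highest for the other 4, which were Wfdc2, Ovgp1, Plet1 and Slc14a1. Most of these deviations were small. Pax8 lay 0.27 above the null mean on null replicate 1, and Ovgp1 lay 0.40 above it on null replicate 2, on the log2 scale. With 1 array per pool, the error of these values is unknown. Summed over the 8 genes the signal was 14607, 15559 and 12860 on the null arrays, against 867.1 and 798.2 on the wild type arrays.

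Other genes of the tract epithelium, from a list of 24, were mostly higher in null ovaries too. The list, like the others below, was chosen with earlier results of these data known, so its counts and p-values only describe. Of 23 measured, 18 rose and 0 fell (limma, adjusted p below 0.05), where 27.5% of all genes passed, 14.0% higher and 13.5% lower. At an unadjusted p below 0.05, 20 were higher and 0 lower. The median log2 difference was 1.64, against -0.02 over all genes. Sox17, a transcription factor of endothelium and of oviduct and uterine epithelium, had 3058.2, 3459.6 and 3585.3 on null arrays, against 721.5 and 520.6 on wild type arrays. It rose by 2.43 (SE 0.15, adjusted p = 6.7e-05). The tight junction gene Cldn3 had 1459.2, 1325.6 and 1035.1 on null arrays, against 100.4 and 70.7 on wild type arrays, and rose by 3.55 (SE 0.22, adjusted p = 6.7e-05). Its other 3 probe sets gave 3.35, 3.81 and 4.48.

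Klf5, a zinc finger factor of epithelia, rose by 2.72 (SE 0.17, adjusted p = 6.93e-05), with 0.71 and 0.83 at its dimmer probe sets and 1.42 with all averaged. Pgr, the progesterone receptor gene, had 927.7, 1372 and 1286.3 on null arrays, against 117.5 and 115.4 on wild type arrays, and rose by 3.05 (SE 0.21, adjusted p = 9.73e-05), or 1.78 with its probe sets averaged. Both steroid receptor and keratin genes of the list moved the same way. Esr1 rose by 1.64 (1.05 with its probe sets averaged), Krt7 by 1.80, Krt8 by 1.51, Krt18 by 1.22 and Krt19 by 2.06. Wnt7a, the ligand that patterns the tract, rose by 3.16 at its brightest probe set, but its dimmer probe sets gave -0.17 and -0.54. With its probe sets averaged the Wnt7a call was lost (0.82, adjusted p = 0.0538). Epcam rose by 1.09 (limma, adjusted p = 0.00382) but did not pass with its probe sets averaged (0.82, adjusted p = 0.0509). Cdh1 rose by 0.89 (limma, adjusted p = 0.0467) but did not pass with median centring (0.62, adjusted p = 0.175). Cdh1 also missed the threshold without null replicate 2 or null replicate 3. It missed it with 64 added (limma, adjusted p = 0.056) and without a variance trend (adjusted p = 0.143). Without wild type replicate 2 the log2 difference was 0.93 for Epcam and 0.79 for Cdh1. That fit leaves a lone wild type array, and no pass is claimed from it. Cldn4, Lcn2, Foxa2, Sprr2f and Ltf did not pass.

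Regulators of the mesonephric and ureteric ducts came from a list of 24. Of 21 measured, 5 rose and 3 fell, where 14.0% of all genes rose and 13.5% fell. Nothing is read from these counts. The median log2 difference of the 21 was 0.31. Npnt, which encodes the matrix protein nephronectin, had 2448.2, 2958.7 and 2415.9 on null arrays, against 853.4 and 955.1 on wild type arrays, and rose by 1.54 (SE 0.13, adjusted p = 0.000228). Sall1, a zinc finger gene of kidney development, had 619.3, 1282.7 and 1308.5 on null arrays, against 74.1 and 82.9 on wild type arrays, and rose by 3.32 (SE 0.33, adjusted p = 0.000441). Wnt11, a ligand of the ureteric tip, rose by 1.57 (SE 0.18) and Cdh6, a cadherin of early nephrons, by 1.66 (SE 0.25). The other Cdh6 probe set gave 0.17, and both averaged gave 0.91. Gfra1 rose by 1.08 (SE 0.27, limma, adjusted p = 0.0264). It did not pass without null replicate 2 (adjusted p = 0.0818), without null replicate 3 (adjusted p = 0.102) or with its probe sets averaged (0.81, adjusted p = 0.0904). The Gfra1 difference was 1.21 without wild type replicate 2 and 0.91 without wild type replicate 3. Those fits leave a lone wild type array, and no pass is claimed from them.

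Gata3 and Ret, defining genes of the mesonephric duct, had low signals. Gata3 had 25.3, 5.6 and 16.9 on null arrays, against 72.4 and 80.2 on wild type arrays, and fell by 1.80 (SE 0.40, adjusted p = 0.015). The receptor gene Ret had 84.6, 54.1 and 56.6 on null arrays, against 83.5 and 43.4 on wild type arrays, and did not pass. Emx2, needed for both ducts and expressed in gonads, was bright in both groups, with a log2 difference of -0.35 (SE 0.18) that did not pass. Eya1 fell by 2.03 and Lgr4 by 1.11. The other Lgr4 probe set gave 0.22, and with both averaged Lgr4 had -0.44 (adjusted p = 0.253). With its 3 probe sets averaged, Eya1 had -1.27. Of the 3 falls in this list, 1 passed without wild type replicate 2 and 0 passed without wild type replicate 3, which leave a lone wild type array. The log2 differences then were -1.86 and -1.76 for Gata3, -2.21 and -1.83 for Eya1 and -1.01 and -1.22 for Lgr4. Without wild type replicate 3, the adjusted p was 0.0975 for Gata3, 0.077 for Eya1 and 0.065 for Lgr4. Gata3 also missed the threshold without null replicate 2 (adjusted p = 0.0521) and without wild type replicate 2 (adjusted p = 0.0806). The name of the 9 genes is kept here as the name of a gene list, and no cell type is drawn from it.

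**Figure D3:**
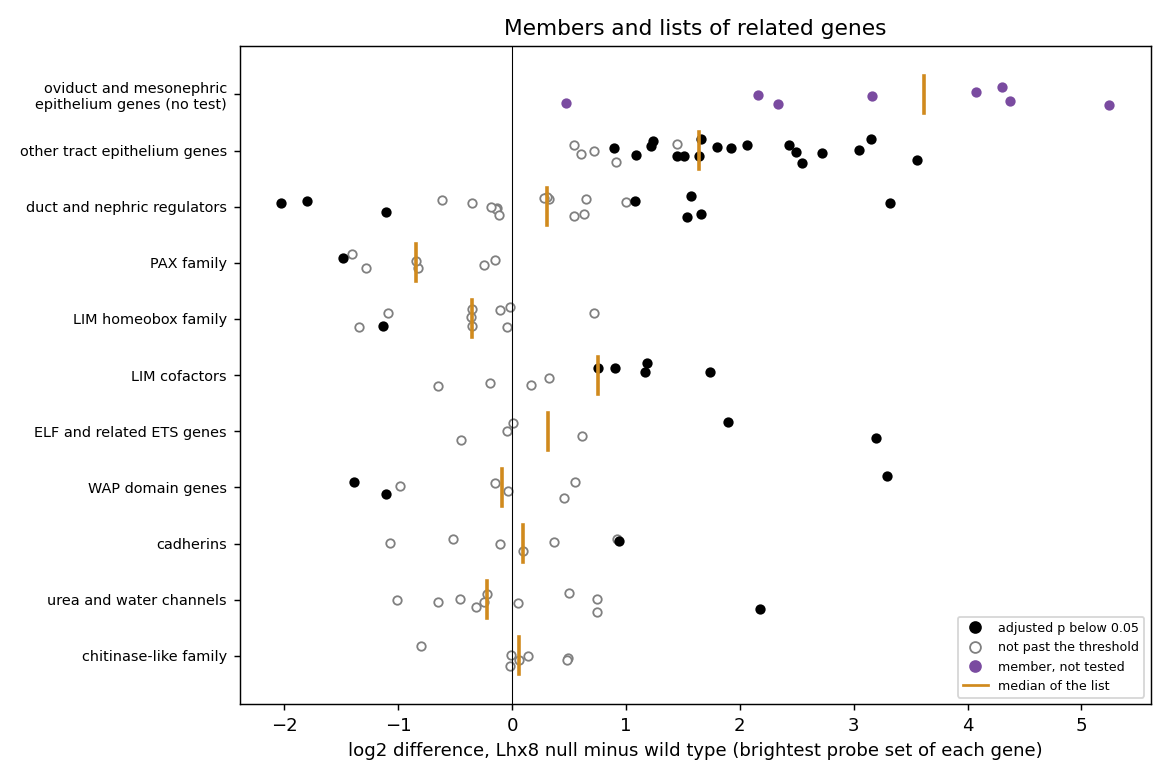
Log2 difference, null minus wild type, of each gene at its brightest probe set, for the 8 measured members (purple, not tested) and for lists of related genes, with an orange bar at each list's median. Filled black points passed an adjusted p of 0.05, which 18 of 23 other tract epithelium genes did and 0 of 7 chitinase-like genes.

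Of 7 other PAX genes measured, 0 rose and 1 fell, and 0 were higher and 3 lower at an unadjusted p below 0.05 (limma). Pax6, a factor of eye and brain, had 16.6, 22.9 and 2.1 on null arrays, against 46.1 and 42.3 on wild type arrays. Pax5 had 54.3, 20.1 and 104.7 on null arrays, against 93.5 and 75.2 on wild type arrays, and did not pass. The gene that fell, Pax7, fell by 1.49 (adjusted p = 0.0188), at signals of 2 to 6.9 on null arrays, against 25 and 47.6 on wild type arrays. It did not pass without null replicate 2, without wild type replicate 3 or with its probe sets averaged (-0.79, adjusted p = 0.0859), and its other probe set gave -0.09. Adding 1 or 64 in place of 16 gave -3.09 and -0.62. Of 10 other LIM homeobox genes, 0 rose and 1 fell, with 0 higher and 3 lower at an unadjusted p below 0.05. That gene, Lhx9, needed for the gonad to form, had 698.6, 736.5 and 990.8 on null arrays, against 1903.6 and 1769.9 on wild type arrays. It fell by 1.13 (SE 0.18, adjusted p = 0.00309), in the opposite direction to Lhx1, and by 1.36 to 2.03 at its other 3 probe sets. Lhx5 had 4.7, 39.9 and 26.6 on null arrays, against 30.9 and 20.4 on wild type arrays, and did not pass.

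Of 9 cofactors of LIM proteins, 5 rose and 0 fell, where 14.0% of all genes rose and 13.5% fell. The counts for the 9 were the same at an unadjusted p below 0.05 (limma). Ldb2, which bridges LIM homeodomain factors into complexes, had 2681.7, 2378.5 and 2125.1 on null arrays, against 641.2 and 808.3 on wild type arrays, and rose by 1.74 (SE 0.16, adjusted p = 0.000273), or 1.16 with its probe sets averaged. Lmo4, a LIM-only protein gene, rose by 1.17 (SE 0.14, adjusted p = 0.000875). Ldb1, Ssbp4 and Lmo2 rose by 1.18, 0.91 and 0.75, and without wild type replicate 3 only 2 of the 9 passed, with 3 passing without wild type replicate 2 or null replicate 2.

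Among 6 factors of the ETS family related to Elf3, Ehf and Elf5 rose and 0 fell, with 2 higher and 1 lower at an unadjusted p below 0.05 (limma). Ehf, the closest epithelial relative, had 716.1, 581.9 and 526.8 on null arrays, against 30.9 and 64.1 on wild type arrays. It rose by 3.20 (SE 0.28, adjusted p = 0.000255), where the difference of Elf3 was 0.47. Other Ehf probe sets gave 2.69, 1.46 and 0.48, and all averaged gave 1.96. Elf5 had 55.9, 76.3 and 69.6 on null arrays, against 4.6 and 4.4 on wild type arrays. It rose by 1.90 (adjusted p = 0.00832), but did not pass when wild type replicate 2 (adjusted p = 0.0608) or wild type replicate 3 (adjusted p = 0.071) was left out. Its other probe set gave 0.09 (adjusted p = 0.911), and both averaged gave 0.99. Adding 1 or 64 in place of 16 gave 3.42 and 0.87.

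Of 8 measured genes of whey acidic protein domains, 1 rose and 2 fell, where 14.0% of all genes rose and 13.5% fell. Wfdc15b had 666.9, 815.4 and 571.5 on null arrays, against 29.7 and 74.7 on wild type arrays, and rose by 3.29 (SE 0.32, adjusted p = 0.000385). Wfdc15a and Wfdc1 fell by 1.39 (SE 0.20, adjusted p = 0.00199) and 1.10 (SE 0.16, adjusted p = 0.00238), and the other 5 of 8 measured did not pass. Of 7 other cadherins, Cdh11 of mesenchyme rose by 0.94 (SE 0.15), but did not pass when wild type replicate 3 was left out (adjusted p = 0.0509). Cdh13 did not pass at its brightest probe set (0.92) but rose by 2.09 at another (limma, adjusted p = 0.00495). Of 11 urea and water channels, Aqp1 rose by 2.18 (SE 0.18, adjusted p = 0.000197). Aqp1 had 1658.9, 1787.2 and 1217.9 on null arrays, against 315.6 and 327.2 on wild type arrays. Slc14a2, the neighbour and paralog of Slc14a1, had 61.6, 94.2 and 60.9 on null arrays, against 59.3 and 120.5 on wild type arrays, so its groups overlapped. Of 7 chitinase-like relatives of Ovgp1, 0 rose and 0 fell, also at an unadjusted p below 0.05 (limma).

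The nearest protein-coding genes with a probe set on either side of the 8 measured members, 16 in all, were taken from RefSeq. Of these, 4 rose and 1 fell, where 14.0% of all genes rose and 13.5% fell, and 2 rose when null replicate 2, null replicate 3, wild type replicate 2 or wild type replicate 3 was left out. Wfdc6a, the second gene after Wfdc2 and the nearest with a probe set, had 221.3, 173.2 and 237.5 on null arrays, against 865.6 and 709.3 on wild type arrays, and fell by 1.89 (SE 0.21, adjusted p = 0.000641). Ncam1, beside Plet1, rose by 1.51 (SE 0.18), and lost its call when its 7 probe sets were averaged (0.70, adjusted p = 0.0535). Wdr77, beside Ovgp1, rose by 0.81 (SE 0.11), and Pts, on the other side of Plet1, had -0.14 and did not pass.

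Most listed markers of tract mesenchyme and mesothelium were also higher in null ovaries. Of 12 tract mesenchyme genes, 10 rose and 0 fell, where 14.0% of all genes rose and 13.5% fell. The counts for the 12 were the same at an unadjusted p below 0.05 (limma). Their summed signal ran from 23541 to 28407 on null arrays and from 10628 to 13620 on wild type arrays. Hand2 had 2036.4, 2143.2 and 2052.2 on null arrays, against 33.7 and 70.5 on wild type arrays, at its brightest probe set. Hand2 rose by 4.88 there, with 2.35 and 0.82 at its other probe sets and 2.68 with all averaged. Hoxa11 had 701.4, 1070.1 and 1101.6 on null arrays, against 48 and 48 on wild type arrays. Hoxa13, of the lower tract, was dim, at 13, 25.6 and 27.7 on null arrays, against 50.5 and 29.6 on wild type arrays. Tcf21 was bright in both groups, with a log2 difference of -0.07 that did not pass. Of 7 mesothelial genes, 6 rose and 0 fell, also at an unadjusted p below 0.05 (limma). The sum of the 7 ran from 15717 to 16821 on null arrays and from 5830 to 6338 on wild type arrays. Bnc1, bright in both groups, had a log2 difference of -0.06 and did not pass.

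Most markers of germ cells and pregranulosa cells were lower in null ovaries. All 9 germ cell genes fell, where 13.5% of all genes fell. Their sums were 7129 to 11155 on null arrays and 56387 to 56968 on wild type arrays. Of 9 pregranulosa genes 8 fell, or 5 with the probe sets of a gene averaged, and Rspo1 had a log2 difference of 0.03, with sums of 17589 to 19758 on null arrays and 29512 to 32440 on wild type arrays. Foxl2, which maintains granulosa identity, had 2304.9, 1804.2 and 1714.2 on null arrays, against 5688.8 and 4462.1 on wild type arrays. Null replicate 3, the lowest null array for most members, had the highest germ cell sum of the null arrays. The part of these other cells in the members' differences was not tested.

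Few markers of kidney, adrenal and ciliated cells passed the test. Of 10 nephron genes 0 rose and 1 fell, with 1 higher and 2 lower at an unadjusted p below 0.05 (limma), and their sum ran from 582.1 to 664.4 on null arrays and from 752.1 to 872.9 on wild type arrays. Slc5a2, a glucose transporter of the proximal tubule, had 63.8, 122.2 and 96.1 on null arrays, against 265.3 and 288.3 on wild type arrays. It fell by 1.60 (SE 0.34, adjusted p = 0.0131), with -1.68 at its other probe set, and did not pass when wild type replicate 2 (adjusted p = 0.0946) or wild type replicate 3 (adjusted p = 0.124) was left out. Umod, of the thick ascending limb, had 40.7, 28.5 and 2.8 on null arrays, against 42.4 and 77.7 on wild type arrays. Slc12a1, of the same segment, had 49.2, 19.6 and 11.8 on null arrays, against 12.1 and 25 on wild type arrays. The receptor gene Lrp2, of proximal tubule and other epithelia, did not pass at its brightest probe set (0.96) but rose by 1.98 at another (adjusted p = 0.00422).

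Of 4 adrenal cortex genes 0 rose and 0 fell, also at an unadjusted p below 0.05 (limma), with sums of 206.4 to 230.7 on null arrays and 182.3 to 233.9 on wild type arrays. Of 9 genes of multiciliated cells, Tekt2 rose and Ccno fell. Foxj1, the master factor of motile cilia, had 70.6, 114.1 and 41.8 on null arrays, against 44 and 33.7 on wild type arrays, and did not pass. Tekt2 rose by 1.03, but did not pass when null replicate 3 or either wild type array was left out. Ccno had 93.8, 116.9 and 102 on null arrays, against 3037.8 and 2458.8 on wild type arrays. Without Ccno, left out after its values were seen, the list summed to 608.8 to 846.4 on null arrays and 478.1 to 490.5 on wild type arrays. No listed marker was at 0 on any array.

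**Figure D4:**
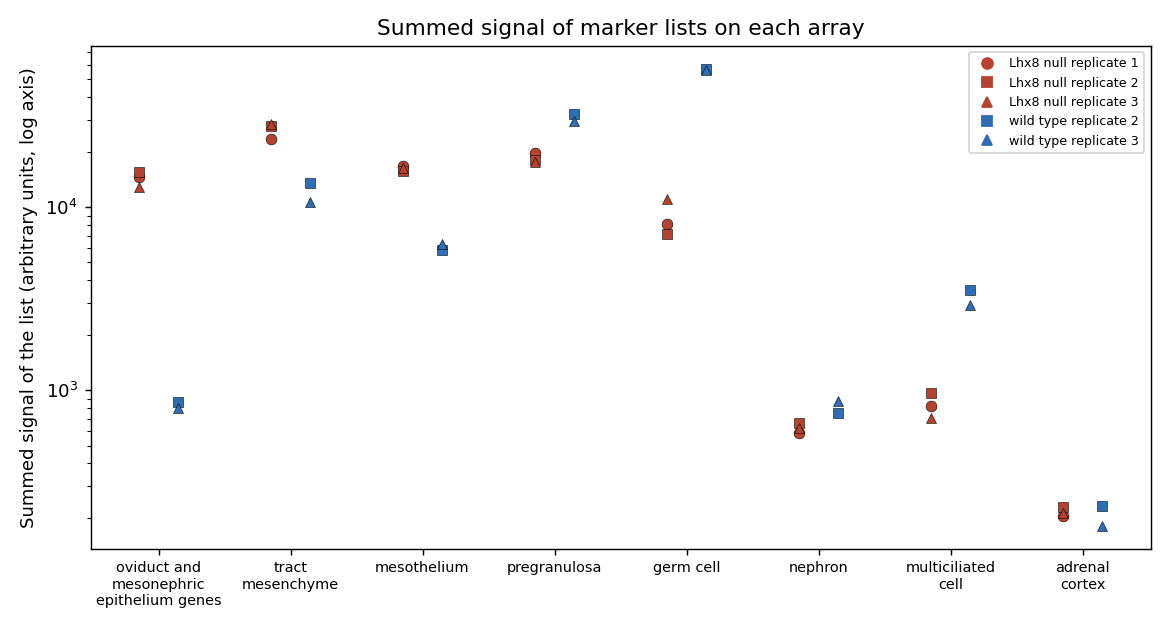
Summed signal of the 8 measured members and of 7 marker lists on each array, on a log axis, with Lhx8 null arrays (red) left of wild type arrays (blue). The members sum to 12860 to 15559 on null arrays and 798.2 to 867.1 on wild type arrays, while the nephron and adrenal cortex sums lie below 1000 in both groups.

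The genes whose profiles over the 5 arrays came closest to each member were named by the root mean square distance between centred log2 levels. The 5 arrays fall into the 2 groups of the comparison, so likeness reflects the size of the difference first. For Wfdc2 they were Hand2 (0.38), Osr2 (0.57) and Rsph3a (0.64). For Plet1 Osr2 came closest (0.13), for Ovgp1 Osr2 (0.23) and for Slc14a1 Rsph3a (0.14). For Cdh16 they were Wnt7a (0.20), St14 (0.23) and Mybpc1 (0.24). Pax8 had closer matches in Hoxa5 (0.06), Bcam (0.09) and Adamts15 (0.09), and Lhx1 in Cxcl14 (0.08), Aqp1 (0.09) and Tmem119 (0.11). Hoxa5 had 1368.8, 999.5 and 1104.8 on null arrays, against 204.6 and 229 on wild type arrays, and like Pax8 was brightest on null replicate 1. Elf3, with its small difference, came closest to Marf1, Atrx and H1f2 (0.03 each). All profiles were taken at the brightest probe set of each gene. With probe sets averaged, the log2 difference went from 4.88 to 2.68 for Hand2 and from 4.23 to 2.25 for Osr2.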

How the data were processed

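RNA of newborn ovary pools, 3 Lhx8 null and 2 wild type, was hybridised to 1 array per pool, and groups came from the sample titles. The deposited values are intensities, 1 per probe set and array, which the authors made from biotin-labelled RNA, and their 2% trimmed mean is 500 on each array. GCOS is named for wild type samples in the submitters' processing notes. For null samples the software is not given in the sources used here. Members and gene lists were chosen with earlier results of these data known.

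Of 45101 probe sets, 64 controls were left out. Signals were put on the scale log2(signal + 16) and quantile normalised, and null minus wild type was fitted with limma 3.58.1 in R 4.3.3 (lmFit, eBayes with a variance trend, two-sided). P-values were adjusted over all 45037 probe sets by Benjamini-Hochberg, with a threshold of 0.05 and no brightness filter. The steps were run on simulated data in which few probe sets were changed, as many up as down. Such data cannot test the scaling where many probe sets differ. P-values measure the spread between pools, and 3 against 2 arrays limit the precision. Symbols came from the platform annotation (34945 probe sets with 1 symbol), and each gene in a list stands at its brightest probe set. The genes named are all members, of each list up to 4 genes with the smallest p and close paralogs, and for each member the 3 closest profiles; other names were chosen after their values were seen. Alternatives changed the scaling, the constant, a filter on dim probe sets, the variance model, the threshold, the arrays, the replicate block and the averaging of probe sets. The neighbours of members, protein-coding genes, were added as a list after the data were seen. Figures were drawn with matplotlib 3.10.9.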

Additional observations from a re-analysis of the deposited data

How the results depend on the processing

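Across all alternatives, every member probe set but Pax8 1446561_at stayed higher in null ovaries. That probe set stood at -0.22 and turned to 0.010 with the deposited scaling, and ran from -0.46 (without null replicate 2) to 0.066 (without null replicate 3) as each array was left out. The median log2 difference of the 8 members, 3.62, was 4.09 with 1 and 3.13 with 64 as the added constant, and ran from 3.22 to 3.88 as each array was left out. Of all probe sets, 4816 were higher and 4642 lower. Without a variance trend 2953 were higher, at a threshold of 0.01 2378 were higher and 2372 lower, and with each array left out 2134 to 5098 were higher and 1801 to 4929 lower, the fewest without wild type replicate 3. Over the 184 other genes in the lists, 54 rose and 27 fell. The replicate block gave 57 higher and 27 lower there, and 5147 higher and 4683 lower over all probe sets. Deviations from the group mean correlated at 0.00833 and 0.0078 between arrays sharing a replicate number. The deviations of 2 wild type arrays are equal and opposite, so these values cannot settle whether the numbers pair the arrays. Of 72 list genes examined singly, 44 passed and 34 of them passed under every alternative. Signal over background was not assessed, which limits the differences of dim probe sets such as those of Lhx1, and with 2 wild type pools that group's spread is poorly known.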

Other observations

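Lcn2, Ltf and Chil3, which neutrophils are known to express, varied widely among the null pools. Lcn2 had 1090.7, 1787.7 and 385.3 on null arrays 1, 2 and 3, against 308.2 and 318.7 on wild type arrays. Ltf had 553.4, 956.1 and 77.7 on null arrays, against 205.8 and 217 on wild type arrays. Chil3 had 757.3, 1253.3 and 3.5 on null arrays, against 205.7 and 220.5 on wild type arrays. All were lowest in null replicate 3 and highest in null replicate 2, and none passed the test with all arrays. Without null replicate 3 each passed (limma), with log2 differences of 2.07 (adjusted p = 0.00351) for Lcn2, 1.62 (adjusted p = 0.0145) for Ltf and 2.04 (adjusted p = 0.00487) for Chil3. Over all alternatives the highest adjusted p was 0.31 for Lcn2, 0.946 for Ltf and 0.993 for Chil3. They were picked out after their values were seen. Lcn2 and Ltf are also in the list of other tract epithelium genes. Wfdc2, Ovgp1, Plet1 and Slc14a1 had the same order of null arrays, with Wfdc2 between 5578.0 and 6412.9. Pax8, Lhx1, Elf3 and Cdh16 had another order, with the highest signal in null replicate 1. With 3 null arrays few orders are possible, and nothing is read from the match.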
